A study of Mus musculus with 2 samples.

Results

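The Ly49 receptors are a family of lectin-like receptors that sit on the surface of mouse natural killer (NK) cells and of some T cells. The 8 members described here (Klra1, Klra3, Klra4, Klra5, Klra6, Klra7, Klra8 and Klra9) were taken by symbol from the gene table, where they were 8 of 27998 gene rows and 8 of the 11 rows whose symbol starts with Klra. Their transcripts were counted in NK cells, in T cells with and without Cd8, in B cells and in all other cells of the brain leukocytes that were sequenced.

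The series compared leukocytes of the twitcher (twi) mouse, which lacks the lysosomal enzyme galactosylceramidase (genotype galc-/-) and models globoid cell leukodystrophy, with those of wild-type littermates (WT, galc+/+). All mice were untreated C57Bl/6 animals at postnatal day 21. CD45+ cells (CD45 marks blood-derived cells and microglia) were sorted from dissociated brain after a Percoll gradient, pooled over the animals of a genotype, and made into 1 droplet library per genotype with a protocol that reads the 3′ ends of transcripts and counts unique molecular identifiers (UMIs). With 1 pooled library per genotype there was no replicate and no test of genotype was possible, so every interval below is an exact 95% interval that covers counting error only. UMIs from the same cell are not independent, and the spread between animals is not in any interval.

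Inhibitory Ly49 receptors bind classical MHC class I molecules on other cells and recruit the phosphatase encoded by Ptpn6 through a tyrosine motif in their cytoplasmic tail, which holds the NK cell back. Activating Ly49 receptors lack that motif and signal through the adaptor encoded by Tyrobp, and in part through that encoded by Hcst. Each NK cell switches on its own combination of the genes, and some activated, memory-like, regulatory and NK1.1-bearing T cells carry Ly49 receptors too.

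By role, the members are the inhibitory receptors Ly49A (Klra1), Ly49C (Klra3), Ly49E (Klra5), Ly49F (Klra6), Ly49G (Klra7) and Ly49I (Klra9) and the activating receptors Ly49D (Klra4) and Ly49H (Klra8), the last of which recognises a protein of mouse cytomegalovirus. All 8 genes lie on the minus strand of chromosome 6 in a cluster of 488 kb, chr6:129898996-130386874 (GRCm38, GENCODE annotation). The order by coordinate is Klra5, Klra6, Klra4, Klra8, Klra9, Klra7, Klra3 and Klra1, so the 2 activating genes are neighbours among the 8 members. The pseudogene Klra11-ps lies between them. The first 16 codons of each are shown because the 2 roles differ there. Codon 8 is in capitals, and each stretch lies within 1 coding exon on the minus strand (GRCm38).
Klra1, chr6:130380615-130380662: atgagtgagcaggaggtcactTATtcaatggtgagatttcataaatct
Klra3, chr6:130335752-130335799: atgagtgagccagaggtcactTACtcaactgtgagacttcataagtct
Klra5, chr6:129911414-129911461: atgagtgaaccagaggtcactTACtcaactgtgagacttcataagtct
Klra6, chr6:130025172-130025219: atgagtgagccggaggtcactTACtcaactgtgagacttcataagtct
Klra7, chr6:130231570-130231617: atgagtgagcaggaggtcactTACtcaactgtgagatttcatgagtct
Klra9, chr6:130191254-130191301: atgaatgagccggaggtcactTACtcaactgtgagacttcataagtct
Klra4, chr6:130065255-130065302: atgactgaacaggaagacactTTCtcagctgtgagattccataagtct
Klra8, chr6:130128113-130128160: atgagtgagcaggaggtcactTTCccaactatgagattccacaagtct
Codon 8 was a tyrosine codon, TAT or TAC, in all 6 inhibitory members and TTC in Klra4 and Klra8.

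The members are close paralogs, and reads from the 3′ end may not always separate them. Of the 75-base windows in the last 500 bases of each transcript, Klra9 shared 23.9% with another Klra gene (Klra3, Klra10 or Klra11-ps), Klra3 shared 18.5% (with Klra9, Klra10 or Klra11-ps) and Klra7 shared 16.9% (with Klra13-ps). Klra1 shared 1 window, with Klra4, and Klra4, Klra5, Klra6 and Klra8 shared none. The paper states that only reads above a limit on the mapping score were kept, so reads from shared windows may have been lost. Counts of Klra3, Klra7 and Klra9 are therefore less certain than those of the other members. Whether any reads were counted for the wrong member was not tested.

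The WT library held 3749714 UMIs in 1278 barcodes and the twi library 4807539 UMIs in 1220 barcodes, with no barcode in common. After barcodes with more than 15% mitochondrial UMIs were left out, 1271 and 1207 cells remained. NK cells were those with Ncr1 or Klre1 and no Cd3e, 119 in WT and 113 in twi, or 9.36% of cells in each. Cd3e-positive T cells with Cd8a or Cd8b1 (Cd8+ T cells) numbered 99 in WT and 411 in twi, and those with neither (Cd8- T cells) 143 and 289. Of the 7 NK markers, Ncr1 and Klre1 chose the cells, and the others were seen in 49.6% (Eomes) to 83.2% (Klrk1) of WT and 34.5% to 83.2% of twi NK-gate cells. Galc, the gene that carries the twi mutation, gave 4 UMIs in WT and 8 in twi, and these counts did not check the genotype. The pooled animals differed in sex: an Xist UMI was seen in 0 of 1271 cells of the WT library and in 47.6% of twi cells. A count of 0 limits the share of WT cells with an Xist UMI to 0.236% (a floor of 3 cells), and says nothing of cells in which the transcript was missed, here and for the other counts of 0 below.

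Most NK cells and a minority of T cells carried Ly49 transcripts. A cell with at least 1 UMI of any member is called Ly49-positive. In the NK gate 83 of 119 WT cells (69.7%, 95% interval 60.7 to 77.8%) and 76 of 113 twi cells (67.3%, 57.8 to 75.8%) were Ly49-positive, with median depths of 2947 and 3122 UMIs per cell. These shares lay within each other's intervals.

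Among Cd8+ T cells the Ly49-positive share was 18.2% in WT (18 of 99 cells, 11.1 to 27.2%) and 21.2% in twi (87 of 411, 17.3 to 25.4%), at median depths of 3766 and 4262 UMIs. Among Cd8- T cells it was 12.6% in WT (18 of 143, 7.63 to 19.2%) and 25.6% in twi (74 of 289, 20.7 to 31.1%), at median depths of 2659 and 3313 UMIs, 2.03 times the WT share with intervals that did not overlap. The intervals did overlap after thinning (5.33 to 16.1% and 13.9 to 23.1%), with 2 UMIs required of a member (5.46 to 15.9% and 14.7 to 24%), in cells with Y-linked transcripts (4.66 to 21.9% and 9.63 to 32.5%) and with any Cd3 chain as the T cell marker, where the shares were 19.4% (14.7 to 24.9%) and 25.4% (21.3 to 29.9%). B cells, which are not known for these receptors, held a Ly49 UMI in 4.64% of 582 WT and 7.69% of 169 twi cells, at median depths of 2019 and 2216 UMIs. Klra1 gave 19 of these 30 UMIs in WT and 8 of 16 in twi, and was seen in 9 of 119 WT and 6 of 113 twi NK cells. For the 7 other members, the B gate shares were 1.72% and 2.96%, against 18.2% and 20.2% in Cd8+ T cells and 10.5% and 23.2% in Cd8- T cells of WT and twi, a comparison chosen after the data were seen. The remaining cells gave 3.66% and 7.11%.

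Depth moved these shares. When every cell was thinned to 1000 UMIs, with shallower cells left out, the expected shares in WT and twi were 61.5% and 56.9% for NK cells, 7.62% and 11.4% for Cd8+ T cells, 9.77% and 18.2% for Cd8- T cells, and 2.28% and 3.67% for B cells. The order of the T cell gates was unchanged by thinning in twi, where Cd8- T cells exceeded Cd8+ T cells. In WT, Cd8+ T cells were above Cd8- T cells before thinning and below them after it, within overlapping intervals.

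**Figure D1:**
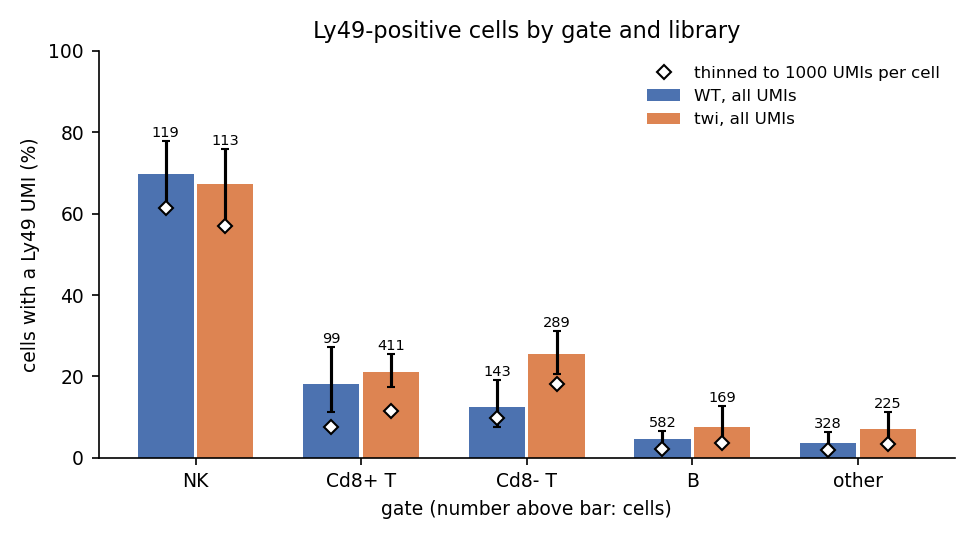
Share of cells with at least 1 Ly49 UMI (y axis, percent) by gate (x axis) in WT and twi; bars are shares, error bars exact 95% binomial intervals, diamonds the expected share after thinning to 1000 UMIs per cell, and the number above each bar is the cell number. NK cells stood at 69.7% and 67.3%, T cells between 12.6% and 25.6%, and B cells at 4.64% and 7.69%.

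The gates that held the library's Ly49 UMIs differed between WT and twi. NK cells held 80.2% of all Ly49 UMIs in WT (981 of 1223) and 45.2% in twi (863 of 1910). Cd8+ T cells held 4.58% and 24.2%, and Cd8- T cells 9.16% and 28.2%. Ly49-positive T cells made up 1.42% (Cd8+) and 1.42% (Cd8-) of all WT cells and 7.21% and 6.13% of all twi cells, while Ly49-positive NK cells made up 6.53% and 6.30%.

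In NK cells the inhibitory members Klra9, Klra7 and Klra3 and both activating members gave nearly all Ly49 UMIs. Klra9 (Ly49I) was the most often seen, in 48 of 119 WT and 49 of 113 twi cells, with 525 and 535 UMIs per 1000000 UMIs of the gate (CPM). Klra7 (Ly49G) was seen in 41 and 38 cells at 412 and 306 CPM, and 1 WT cell alone gave 37 of its 173 UMIs. Klra3 (Ly49C) was seen in 34 and 27 cells at 336 and 200.2 CPM.

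The remaining inhibitory members were sparse in NK cells. Klra1 (Ly49A) gave 40 UMIs in 9 WT cells and 10 UMIs in 6 twi cells. Klra6 (Ly49F) gave 9 UMIs and 10 UMIs, each in 4 cells. Klra5 (Ly49E), a receptor best known from fetal NK cells, gave 1 UMI in WT and 7 UMIs in 4 cells in twi. These 3 members together covered few of the NK cells in either library.

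The activating members were seen in fewer NK cells than Klra9 but with more UMIs per positive cell, by a small margin for Klra8 in WT. Klra4 (Ly49D) was seen in 28 WT and 25 twi cells, with 8.68 and 8.36 UMIs per positive cell against 4.58 and 4.86 for Klra9. Its level over the gate, 579 and 470.1 CPM, was the highest of the family in WT and second to Klra9 in twi. Klra8 (Ly49H) was seen in 31 and 26 cells at 367 and 369 CPM, with 4.97 and 6.31 UMIs per positive cell. The 2 genes together made up 40.5% of Ly49 UMIs in WT NK cells (37.4 to 43.6%) and 43.2% in twi (39.9 to 46.6%). Activating members were rarely seen alone, since 40 of 43 WT and 37 of 40 twi NK cells with Klra4 or Klra8 also held an inhibitory member. Each UMI stands for 1 transcript read at its 3′ end, so the levels of different members needed no division by length, although unequal capture of their 3′ ends was not tested. Klra9, Klra3 and Klra7 shared 3′ windows with other Klra genes, while Klra4 and Klra8 shared none. Any loss of reads from shared windows would raise the rank and share of the activating members. Whether it did was not tested.

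**Figure D2:**
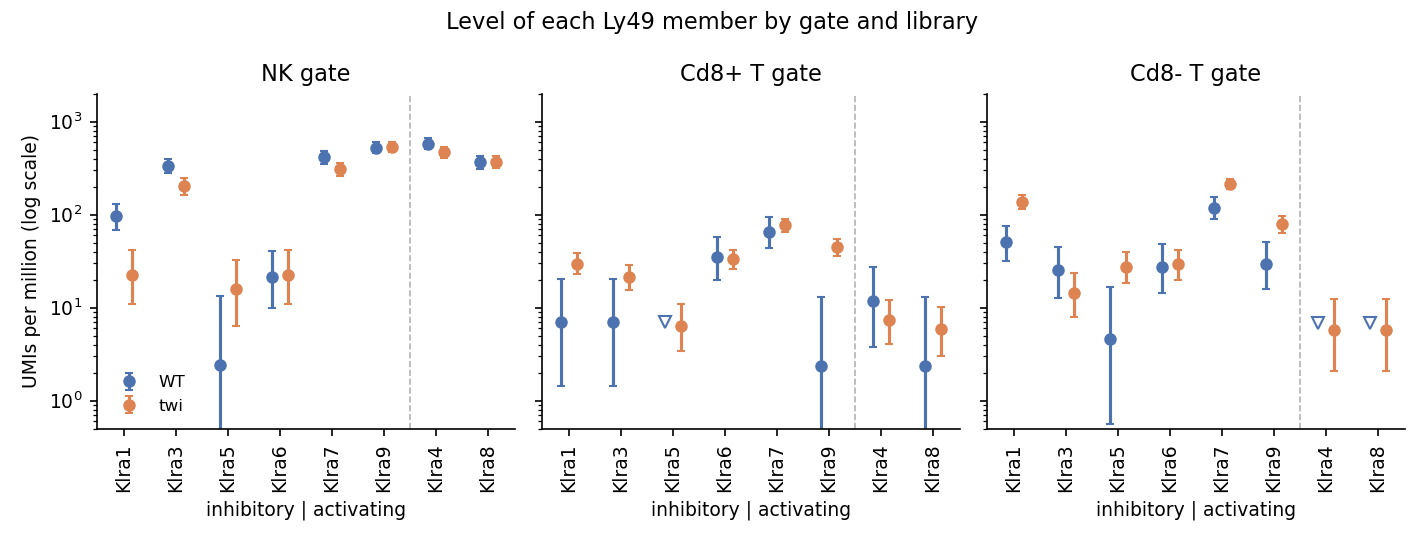
Level of each member (UMIs per 1000000 UMIs of the gate, log axis) in the NK, Cd8+ T and Cd8- T gates of WT (blue) and twi (orange); inhibitory members stand left of the dashed line and activating members right of it, bars are exact 95% Poisson intervals, and an open triangle stands for 0 UMIs, drawn at the level of 3 UMIs. Klra4 and Klra8 stood between 367 and 579 CPM in NK cells and at 11.7 CPM or less in both T cell gates.

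Ly49-positive NK cells held several members at once, with the same mean number in both libraries. The mean number of members seen per positive cell was 2.36 in WT (SD 1.17 over 83 cells) and 2.36 in twi (SD 1.20 over 76 cells), with a highest value of 5 and 6. At least 2 members were seen in 58 of 83 (69.9%) and 55 of 76 (72.4%) positive cells. After thinning, the mean was 1.87 in WT and 1.79 in twi, so the number seen in a cell depended on depth. Doublets, for which no caller was run, were not removed from it. Positive T cells held fewer, with means of 1.50 and 1.89 for Cd8+ and 1.83 and 1.96 for Cd8- T cells in WT and twi.

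**Figure D3:**
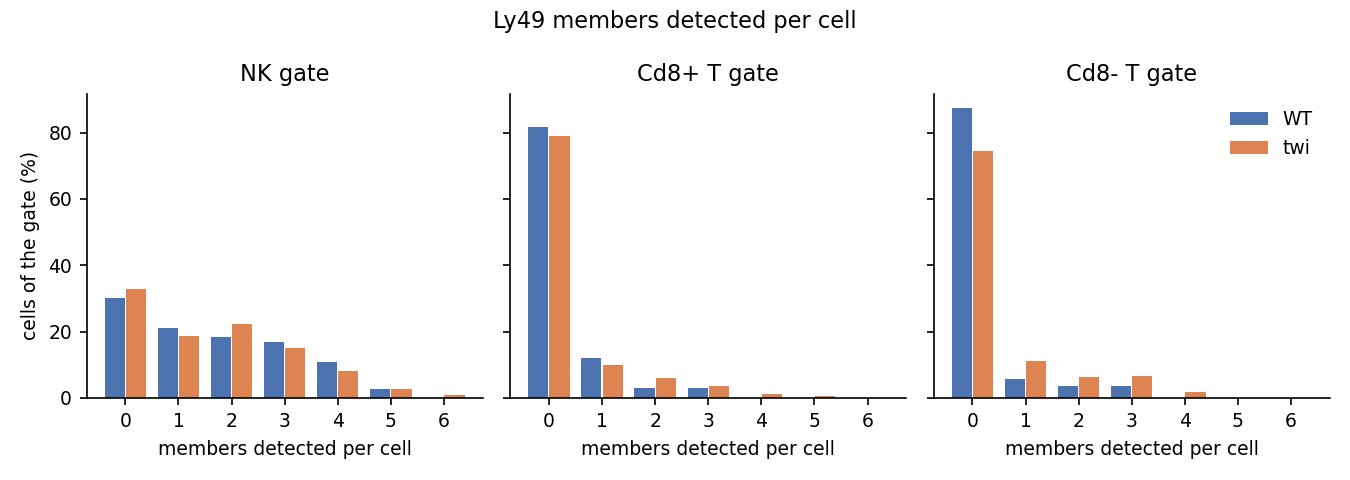
Share of cells (y axis, percent of the gate) by the number of Ly49 members with at least 1 UMI in the cell (x axis), in the NK, Cd8+ T and Cd8- T gates of WT (blue) and twi (orange). NK cells spread from 0 to 5 members in WT and 0 to 6 in twi, while most T cells held 0.

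Some pairs of members were seen together, in NK cells of both libraries, more often than the second member was seen in cells without the first. Klra7 was seen in 19 of 28 Klra4-positive cells in WT (67.9%, against 24.2% of the NK cells without Klra4) and in 16 of 25 in twi (64.0% against 25%). The activating pair also overlapped, with Klra8 in 57.1% of Klra4-positive cells against 16.5% of the others in WT and 44.0% against 17.0% in twi. Klra9 was seen in 64.5% of Klra8-positive cells against 31.8% in WT and in 69.2% against 35.6% in twi. Klra9 and Klra4 showed no such excess in WT, at 39.3% against 40.7%, and 56.0% against 39.8% in twi. Klra9 was seen in 70.6% of Klra3-positive cells against 28.2% in WT and 63.0% against 37.2% in twi, a pair that shares 3′ sequence. These shares are descriptions with no test, and cells without a member include the Ly49-negative and shallower cells: the median depth of Klra4-positive cells was 3093.5 UMIs against 2686 in WT and 4120 against 3015 in twi.

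The summed Ly49 level of NK cells was 2339 CPM in WT and 1941 CPM in twi, a ratio of 0.830 (95% interval 0.756 to 0.910). Cells chosen by Ncr1 alone gave 0.920 (0.836 to 1.01), an interval that includes 1. The inhibitory members together gave a ratio of 0.792 (0.701 to 0.894) and the activating members 0.886 (0.767 to 1.02).

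By member, Klra1 was at 95.4 CPM in WT and 22.5 CPM in twi NK cells, a ratio of 0.236 (0.105 to 0.480), and 5 WT cells but no twi cell held 5 or more of its UMIs. Across the NK gate, 3.34% of 4257 genes with at least 25 UMIs were at least 2-fold lower in twi and 3.81% at least 2-fold higher, and among the members above that minimum Klra1 was past 2-fold. Klra3 had a ratio of 0.595 (0.451 to 0.782), Klra7 of 0.742 (0.588 to 0.934) and Klra4 of 0.811 (0.671 to 0.980). A single WT cell gave 37 of the 173 Klra7 UMIs and 13 of the 141 Klra3 UMIs. Its UMIs are also in the inhibitory sum, and the ratios without that cell were not computed. With NK cells chosen by Ncr1 alone, the intervals of Klra7 (0.654 to 1.07) and Klra4 (0.756 to 1.11) included 1. In cells with Y-linked transcripts Klra4 was at 0.418 (0.269 to 0.628) and Klra7 at 0.961 (0.664 to 1.37), and with any Cd3 chain as the T cell marker Klra4 was at 0.613 (0.489 to 0.766). Klra9 and Klra8 did not differ beyond counting error, with ratios of 1.02 (0.846 to 1.23) and 1.00 (0.801 to 1.26), and neither did Klra6 at 1.05 (0.383 to 2.92). The 1 and 7 UMIs of Klra5 gave a ratio of 6.60 with an interval of 0.848 to 298.

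Markers of other cells were seen in the NK gate, and unevenly so. In WT, 11 of 36 Ly49-negative NK-gate cells (30.6%) held a UMI of Cd79a, C1qa or Csf3r (markers of B cells, microglia and neutrophils) against 6 of 83 Ly49-positive ones, while in twi it was 4 of 37 (10.8%) against 8 of 76. The 4 neutrophil markers gave 18147 UMIs in the 36 Ly49-negative WT cells, 4715 of them in 1 cell and with a median of 3 per cell, against 268 in the 83 Ly49-positive WT cells and 44 and 268 in the Ly49-negative and Ly49-positive twi cells. With the cells that held any of these 3 markers left out, the Ly49-positive share of NK cells was 75.5% in WT and 67.3% in twi and the summed Ly49 ratio 0.797 (0.723 to 0.879). The part of the other cells in the remaining difference was not tested. The T gates held such markers too, and more often in WT. In Cd8+ T cells it was 22.2% of Ly49-positive and 19.8% of Ly49-negative cells in WT, against 9.20% and 7.41% in twi. In Cd8- T cells it was 22.2% and 18.4% against 12.2% and 8.84%. The neutrophil markers gave 11559 UMIs in Ly49-negative twi Cd8- T cells, with a median of 1 per cell, against 84 in the Ly49-positive ones.

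**Figure D4:**
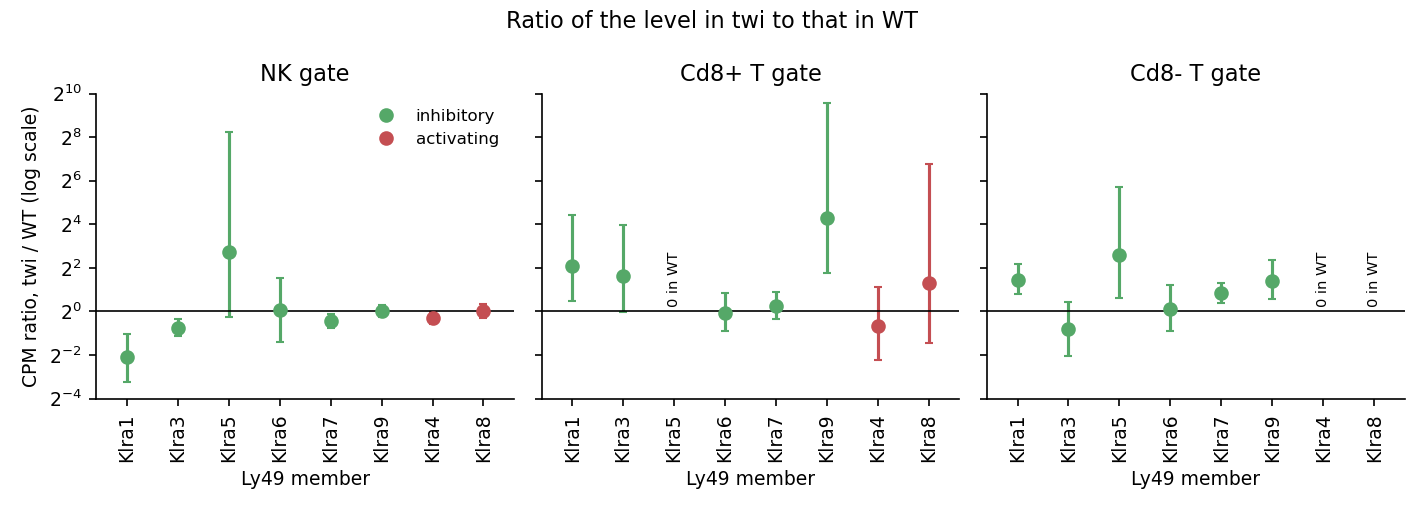
Ratio of each member's level (CPM) in twi to that in WT on a log axis, in the NK, Cd8+ T and Cd8- T gates; points are ratios, bars exact 95% conditional intervals, green marks inhibitory and red activating members, and members with 0 UMIs in WT carry no point. Klra1 stood at 0.236 in NK cells, 4.25 in Cd8+ T cells and 2.72 in Cd8- T cells.

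Cd8+ T cells carried mostly inhibitory members. Klra7 was the leading member in both libraries, with 28 of 56 UMIs in 11 WT cells and 158 of 463 UMIs in 44 twi cells. Klra6 followed in WT, with 15 UMIs in 8 cells, and gave 68 UMIs in 34 cells in twi. The levels of these 2 members differed by less than counting error between WT and twi, at 65.4 and 77.1 CPM for Klra7 (ratio 1.18, 0.785 to 1.83) and 35.0 and 33.2 CPM for Klra6 (ratio 0.947, 0.536 to 1.78).

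Klra9 was the member of Cd8+ T cells that differed most between the libraries. It gave 1 UMI in 1 of 99 WT cells and 92 UMIs in 37 of 411 twi cells, or 2.34 and 44.9 CPM, a ratio of 19.2 (3.36 to 767). In cells with Y-linked transcripts it gave 1 and 2 UMIs, a ratio of 1.63 (0.0848 to 96.1). Klra1 gave 3 UMIs in 1 WT cell and 61 UMIs in 17 twi cells, a ratio of 4.25 (1.39 to 21.2). Klra3 gave 3 UMIs in 2 WT cells and 44 UMIs in 14 twi cells, a ratio of 3.06 (0.982 to 15.4). Across all 7042 genes with at least 25 UMIs in the Cd8+ T gate, 7.51% were at least 2-fold higher and 3.11% at least 2-fold lower in twi. That minimum, over both libraries, favoured genes higher in twi, whose gate held 2050339 UMIs against 428166 in WT. Klra1, Klra3 and Klra9 reached it through their twi UMIs. With all members summed, the level was 131 CPM in WT and 226 CPM in twi, a ratio of 1.73 (1.31 to 2.32).

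The other members were rare in Cd8+ T cells. Klra5 gave 0 UMIs in 99 WT cells, so that the share of cells with a UMI could be up to 3.03%, and 13 UMIs in 5 twi cells. Klra4 gave 5 and 15 UMIs, a ratio of 0.626 (0.216 to 2.20), and Klra8 gave 1 and 12 UMIs, a ratio of 2.51 (0.371 to 107).

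In Cd8- T cells the leading members were Klra7, Klra1 and Klra9. Klra7 gave 52 UMIs in 10 WT cells and 225 UMIs in 41 twi cells, or 119 and 213 CPM, a ratio of 1.80 (1.32 to 2.48). Klra1 gave 22 UMIs in 7 WT cells and 144 UMIs in 34 twi cells, or 50.3 and 137 CPM, a ratio of 2.72 (1.73 to 4.47), and 1.31 (0.333 to 5.43) in cells with Y-linked transcripts. Klra9 gave 13 UMIs in 7 WT cells and 83 UMIs in 26 twi cells, a ratio of 2.65 (1.47 to 5.18). Across the gate 5.15% of 5976 genes were at least 2-fold higher in twi and 2.73% at least 2-fold lower.

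Klra5 was the rarest inhibitory member of Cd8- T cells in WT, with 2 UMIs in 2 cells against 29 UMIs in 13 cells in twi, a ratio of 6.02 (1.52 to 52.0). Klra6 did not differ beyond counting error, with 12 and 31 UMIs and a ratio of 1.07 (0.535 to 2.29). Klra3 gave 11 UMIs in WT, 10 of them in 1 cell, and 15 UMIs in twi. The summed level was 256 CPM in WT and 511 CPM in twi, a ratio of 2.0 (1.63 to 2.47).

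Transcripts of the activating receptors came mostly from the NK gate, with 397 of 408 UMIs in WT and 373 of 415 in twi. Klra4 and Klra8 together gave 0 of 112 Ly49 UMIs in WT Cd8- T cells, a limit of 2.68% for their share of UMIs and of 2.1% for the share of cells with one, and 12 of 539 (2.23%) in twi, where 1 cell held 5 of the 6 Klra4 UMIs. In Cd8+ T cells they gave 6 of 56 (10.7%) and 27 of 463 (5.83%). Relative to NK cells of the same library, the activating sum was 67.5-fold lower in WT and 63.7-fold lower in twi Cd8+ T cells. It was 73.7-fold lower in twi Cd8- T cells. In WT Cd8- T cells, with 0 UMIs, a floor of 3 UMIs over the gate would be 138-fold lower. The exact interval of that ratio to NK cells reached 0.00895. The inhibitory sum was 11.9-fold and 5.18-fold lower in Cd8+ T cells and 5.44-fold and 2.20-fold lower in Cd8- T cells of WT and twi.

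Single inhibitory members differed in how they were spread over NK and T cells. The Klra6 level in Cd8+ T cells was 1.63 times that in NK cells in WT (0.669 to 4.23) and 1.47 times in twi (0.755 to 3.21), and in Cd8- T cells 1.28 and 1.31 times, with no difference beyond counting error. The Klra1 level in Cd8- T cells was 0.527 times that of NK cells in WT (0.298 to 0.909) and 6.07 times in twi (3.21 to 12.9). Klra1 made up 26.7% of the Ly49 UMIs of twi Cd8- T cells and 1.16% of those of twi NK cells. The members therefore did not stand in 1 ratio to each other across the gates of a library.

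The Ly49-positive Cd8- T cells were mainly cells with Klrb1c, the gene of NK1.1. Some also held Ncr1 or Klre1, the genes that chose the NK cells, 7 of 18 in WT and 41 of 74 in twi. Among Ly49-negative Cd8- T cells it was 7 of 125 and 12 of 215. Of Cd8- T cells with Klrb1c and without Cd4, 11 of 18 were Ly49-positive in WT (61.1%, 35.7 to 82.7%) and 54 of 77 in twi (70.1%, 58.6 to 80.0%), shares near those of NK cells. Of Cd4-positive cells, 1 of 40 (2.50%) and 4 of 62 (6.45%) were Ly49-positive, and of cells with neither transcript 6 of 85 (7.06%) and 16 of 150 (10.7%). Cells with Klrb1c made up 13.3% of the Cd8- T gate in WT and 27.7% in twi. Within the cells without Klrb1c the shares were 5.65% in WT and 9.09% in twi, with overlapping intervals. Without Klra1 these were 3.23% (0.886 to 8.05%) and 8.13% (4.81 to 12.7%), beside 1.72% (0.830 to 3.15%) and 2.45% (0.673 to 6.16%) in B cells without Klrb1c.

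Cd8+ T cells with Klrb1c numbered 1 in WT and 64 in twi, or 1.01% and 15.6% of the gate. In twi, 34 of the 64 were Ly49-positive (53.1%, 40.2 to 65.7%). In Cd8+ T cells without Klrb1c the Ly49-positive share was 17.3% in WT (17 of 98) and 15.3% in twi (53 of 347). Zbtb16, a transcription factor of NKT cells, was seen in 6.29% and 8.65% of Cd8- T cells and in 0 of 99 and 1.22% of Cd8+ T cells. The gene table held no row for the T cell receptor constant genes that were looked up, so NKT and γδ T cells could not be named.

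**Figure D5:**
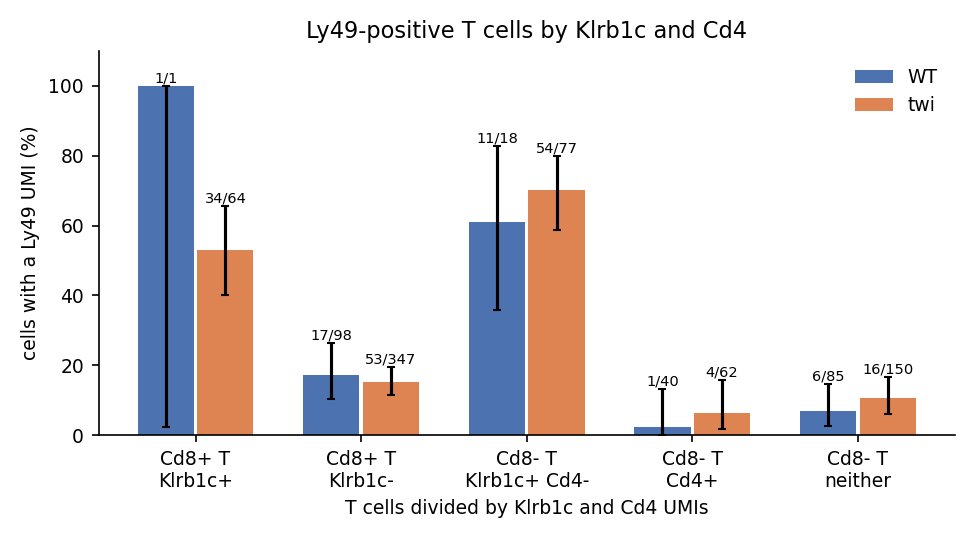
Share of Ly49-positive cells (y axis, percent) among T cells divided by Klrb1c and Cd4 UMIs (x axis) in WT and twi; bars are shares, error bars exact 95% binomial intervals, and the counts above the bars are Ly49-positive cells over cells. Cd8- T cells with Klrb1c and without Cd4 stood at 61.1% and 70.1%, and those with neither transcript at 7.06% and 10.7%.

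The twi values of T cells differed with the sex transcripts seen in a cell. In twi Cd8+ T cells, 72 of 241 cells with Xist were Ly49-positive (29.9%, 24.2 to 36.1%) against 8 of 64 with a Y-linked transcript and no Xist (12.5%, 5.55 to 23.1%), at median depths of 5011 and 3634.5 UMIs. The 106 twi cells with neither transcript made up 25.8% of the gate and fell below both other parts. Of these, 7 (6.60%, 2.70 to 13.1%) were Ly49-positive, at a median depth of 3261.5 UMIs. After thinning the twi shares were 16.4% with Xist, 6.77% with a Y-linked transcript and 2.77% with neither. In WT cells with a Y-linked transcript the thinned share was 8.86%. Of the Klra9 UMIs of twi Cd8+ T cells, 83 came from cells with Xist, 2 from cells with a Y-linked transcript and 7 from cells with neither. The Xist cells also held Klrb1c more often, in 21.2% against 4.69% of the Y-linked cells and 9.43% of those with neither.

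Within cells with a Y-linked transcript and no Xist, the Cd8+ T ratio of twi to WT turned, with a summed Ly49 ratio of 0.528 (0.302 to 0.907) on 24 and 37 UMIs. In Cd8- T cells the ratio of these cells was 1.49 (0.980 to 2.29), and that of Klra7 was 0.683 (0.370 to 1.23), against 1.80 in all cells. The Klra1 ratio of these cells was 0.815 (0.109 to 6.08) in Cd8+ T cells, on 3 UMIs in each library. In NK cells the Ly49-positive share was 69.6% in Xist cells and 70.8% in Y cells of twi, and 68.0% in Y cells of WT. In NK cells with neither transcript it was 60.6% in twi and 71.0% in WT. Sex, animal and genotype cannot be told apart in the Xist cells, which WT lacked.

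The T cell marker used also mattered. NK-gate cells lack Cd3e by definition, but 26 of 83 Ly49-positive WT and 28 of 76 Ly49-positive twi ones held Cd3d or Cd3g. With any of the 3 Cd3 chains as the T cell marker, the summed ratio was 1.29 (1.02 to 1.64) in Cd8+ and 1.12 (0.993 to 1.27) in Cd8- T cells, the Klra7 ratio in Cd8- T cells was 0.967 (0.794 to 1.18), and the Ly49-positive share of WT Cd8- T cells was 19.4% (48 of 247 cells). The activating share of Ly49 UMIs in Cd8- T cells was then 9.28% in WT and 17.5% in twi. Cells of the T gates, chosen by Cd3e, also held NK genes. Ncr1 or Klre1 was seen in 36 of 87 Ly49-positive and 43 of 324 Ly49-negative twi Cd8+ T cells. In WT it was 1 of 18 and 7 of 81. Whether cells with both kinds of marker are NK or T cells was not tested.

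B cells and the remaining cells held few Ly49 UMIs, 30 and 44 in WT and 16 and 29 in twi. In the B gate Klra1 was the leading member, with 19 of 30 UMIs in 18 of 582 WT cells and 8 of 16 UMIs in 8 of 169 twi cells, mostly 1 UMI a cell. In WT NK cells Klra1 gave 4.08% of Ly49 UMIs, so the B gate did not hold the members in the ratio of the NK gate. Among the remaining cells Klra7 led, with 30 UMIs in WT, 17 of them in 1 cell, and 17 UMIs in twi.

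Within a gate, Ly49-positive and Ly49-negative cells of the same library were compared gene by gene. Genes entered with at least 10 UMIs in the positive cells of each library and with no minimum in the negative cells. That filter favours genes that are higher in positive cells, so the counts given here and below describe only the genes that entered. In NK cells 2.38% of 3320 genes were at least 2-fold higher in Ly49-positive cells in both libraries. The fixed lists placed 1 of 8 transcription factors, 4 of 12 other lectins of the NK gene complex, 2 of 10 maturation genes and none of 8 adaptor and signalling genes, 3 ligand genes or 6 T cell state genes among them. The transcription factor was Tbx21, at 2.1 times (1.07 to 4.51) in WT and 2.31 times (1.12 to 5.34) in twi. Without cells that held Cd79a, C1qa or Csf3r it was at 1.63 (0.825 to 3.51) and 2.15 (1.03 to 5.02) times, no longer past 2-fold in WT. Eomes, the factor that marks conventional NK cells, was 13.2 times as high in WT (5.02 to 49.5) and 1.90 times in twi (1.03 to 3.77).

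The adaptor gene Tyrobp, with which Ly49D and Ly49H pair, was 1.64 times as high in Ly49-positive NK cells in WT (1.44 to 1.88) and 1.72 times in twi (1.46 to 2.03), and Hcst 1.93 and 1.83 times. Klri2, a lectin of the same complex, was 4.88 and 3.64 times as high and the granzyme gene Gzma 4.27 and 2.82 times. Cxcr6, a chemokine receptor of tissue-resident cells, was lower, at 0.206 and 0.410 times. It had 14 UMIs in the whole WT NK gate and did not reach the minimum of 10 in positive cells. Itga1, Il7r and Tnfsf10 of the same list were at 5.86, 1.95 and 1.20 times in twi, without cells with Cd79a, C1qa or Csf3r. In WT they were at 0.427, 0.480 and 0.427 times on few UMIs. The intervals of these genes included 1 in both libraries. Khdc1a led a ranking made after the values were seen, with 44 UMIs in positive and 1 in negative cells in WT and 63 and 1 in twi, in 30.1% and 28.9% of positive cells. The Ly49-negative WT cells are those that held more markers of other cells, and without cells with Cd79a, C1qa or Csf3r the Eomes ratios were 10.6 in WT and 1.59 (0.847 to 3.22) in twi and those of Tyrobp 1.51 and 1.60.

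In Cd8- T cells 2.36% of 847 genes were at least 2-fold higher in Ly49-positive cells in both libraries, and the 8 highest by the smaller ratio were mainly NK genes. They were Klrb1c (17.3 and 8.0 times in WT and twi), Cd160 (9.28 and 7.29), Klre1 (6.0 and 13.2), Klrd1 (11.6 and 5.0), Cd7 (6.47 and 4.99), the chemokine gene Xcl1 (13.2 and 4.60), Klhdc2 (4.50 and 4.53) and Klrk1 (4.0 and 6.23). The minimum of 10 UMIs in positive cells let in 6 of 13 lectins and 5 of 8 T cell state genes. It let in 4 of 10 transcription factors and 6 of 14 maturation genes. Of those let in, 5 lectins, 4 T cell state genes, 1 transcription factor (Ikzf2, 3.39 and 2.57 times) and 1 maturation gene were at least 2-fold higher. No adaptor or ligand gene was. Klrb1c was seen in 61.1% of Ly49-positive and 6.40% of Ly49-negative WT cells of the gate, and in 74.3% and 11.6% in twi.

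In Cd8+ T cells 2 of 1109 genes, 0.18%, were at least 2-fold higher in Ly49-positive cells of both libraries. These were Mlx (3.25 times in WT, 1.30 to 8.05, and 2.20 in twi, 1.37 to 3.53) and Ikzf2 (2.1 times, 0.970 to 4.35, and 2.49, 1.90 to 3.27), the gene of the transcription factor Helios. The other 6 highest were Txnl4a, Ccl3, Cd160, Slbp, Hibadh and Klrd1, with smaller ratios between 1.53 (Klrd1 and Hibadh in twi) and 1.78 (Txnl4a in twi). Ly49-positive cells were deeper, with medians of 5251.5 against 3445 UMIs in WT and 5622 against 4043.5 in twi.

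Partner genes of the receptors differed between WT and twi as follows, from lists chosen for their role. In NK cells Tyrobp was at 2882 and 2049 CPM, a ratio of 0.711 (0.652 to 0.775), Hcst at a ratio of 1.21 (1.01 to 1.44) and Ptpn6, the inhibitory receptors' phosphatase, at 1.52 (1.16 to 2.0). The 4 neutrophil markers gave a mean of 154.7 UMIs per NK-gate cell in WT and 2.76 in twi. The part of other cells in these ratios was not tested. The class I ligand genes H2-K1 and H2-D1 had ratios of 1.11 (1.03 to 1.21) and 1.01 (0.947 to 1.08). None of the 8 measured adaptor and signalling genes, 3 ligand genes or 9 transcription factors passed 2-fold in NK cells.

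The other lectins of the NK gene complex were counted if they had at least 25 UMIs over both libraries. In the T gates, which held more UMIs in twi, that minimum favoured genes higher in twi. By median, the lectins counted were near their WT level in NK cells and above it in T cells. In NK cells 0 of 12 were at least 2-fold higher and 1 lower in twi, with a median log2 ratio of -0.01 beside 0.02 over all genes. In Cd8+ T cells 5 of 8 were at least 2-fold higher and none lower, with a median of 1.14 beside 0.07, and in Cd8- T cells 5 of 10, with a median of 0.98 beside 0.00. Over all genes 7.51% and 5.15% were at least 2-fold higher in these 2 gates. Single lectins departed from the medians. In NK cells Cd69 was at 1.92 (1.36 to 2.76) and Klrg1 at 0.482 (0.278 to 0.814). In Cd8+ T cells they were at 1.01 (0.830 to 1.23) and 0.746 (0.314 to 2.04). Klrc1 had ratios of 4.43 (2.73 to 7.70) and 1.90 (1.27 to 2.92) in Cd8+ and Cd8- T cells, and Klrb1c 25.9 (4.56 to 1031, 1 and 124 UMIs) and 2.65 (1.81 to 4.01). Of the transcription factors, Tcf7, known to act on Ly49A expression, had ratios of 1.03 (0.617 to 1.74) in NK, 0.462 (0.382 to 0.560) in Cd8+ T and 0.557 (0.454 to 0.683) in Cd8- T cells.

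The remaining lists were mixed, and their counts stand beside 3.81% of all genes higher and 3.34% lower in NK, 7.51% and 3.11% in Cd8+ T and 5.15% and 2.73% in Cd8- T cells. Of the maturation and tissue-residency genes, 2 of 13 were at least 2-fold higher and 1 lower in twi NK cells, 4 higher and 2 lower of 12 in Cd8+ T cells, and 4 higher of 11 in Cd8- T cells. In NK cells the 2 higher genes were Cxcr6 and Tnfsf10, and the lower 1 was Itgam. Tnfsf10 met the minimum of 25 UMIs mainly through its 23 twi UMIs, beside 2 from WT (ratio 10.8, 2.68 to 94.9). Itga1 of the same list, with 15 twi and 2 WT UMIs, fell below that minimum and was not counted. Of the T cell state genes the counts were 2 higher of 6, 3 higher and 2 lower of 8, and 3 higher and 1 lower of 8. Of the transcription factors 2 of 9 were higher and 1 lower in Cd8+ T cells and 3 of 8 higher in Cd8- T cells. Of the adaptor genes none of 7 passed 2-fold in Cd8+ T cells and 1 of 9, Syk, was lower in Cd8- T cells, and none of the 3 ligand genes passed in either. None of the other Klra genes reached 25 UMIs in these gates.

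Over the 10 groups given by 5 gates in 2 libraries, the genes whose level was most like the summed Ly49 level were Ncr1 (Pearson r 0.975 of log2(CPM + 1)), Klrk1 (0.974), Serpinb9 (0.973), Klre1 (0.971) and Adora2a (0.963), of 8957 genes compared. The groups share libraries, and Ncr1 and Klre1 defined the NK gate.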

How the data were processed

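The deposited files hold, per the labels and the submitters' processing notes, raw UMI counts per gene and barcode that the authors made with Cell Ranger 2.1.1 on the mm10 build, with no normalization. From these counts, barcodes with at most 15% mitochondrial UMIs were kept and gated as described above, with B cells defined by Cd79a in cells of no earlier gate. Sequencing depth was a median of 2216 UMIs per barcode in WT and 3149.5 in twi. No doublet caller was run. Cells with Cd79a, C1qa or Csf3r were instead left out as an alternative.

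Levels were summed UMIs per 1000000 UMIs of the gate (CPM). Shares have Clopper-Pearson intervals, levels Poisson intervals and ratios exact conditional intervals, all at 95% (scipy 1.17.1, numpy 2.4.6). No test was made, since each genotype had 1 library, and the scripts were tested on simulated data. Comparisons over all genes used genes with at least 25 UMIs in both libraries together, and comparisons of Ly49-positive with Ly49-negative cells those with at least 10 UMIs in the positive cells of each library. In the T cell gates, where twi held more UMIs, the first minimum favoured genes higher in twi. Thinning gave the expected share at 1000 UMIs per cell.

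Named genes were the 8 members, lists of adaptor and signalling, ligand, transcription factor, lectin, maturation and T cell state genes and other Klra genes, the 8 genes of each T cell gate with the highest smaller ratio of Ly49-positive over Ly49-negative cells (0.5 UMIs added), and the 5 genes most like the summed level. The members and lists were chosen with earlier results of these data known. Alternatives changed the mitochondrial limit, the gates, the UMI minimum, depth, suspected doublets, the rows summed and the sex transcripts required. Sequences and coordinates came from the GENCODE annotation of GRCm38, read with biopython 1.88. The gene table held no row for the T cell receptor constant genes that were looked up or for the pseudogenes Klra13-ps and Klra14-ps.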

Additional observations from a re-analysis of the deposited data

How the results depend on the processing

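No paired analysis was possible because each genotype had a single pooled library. Of 89 planned values recomputed under other settings, out of 228 in all, 72 moved by less than their counting interval. The other NK gates could not move the T cell shares, which are the same by construction and are among the 72. The Ly49-positive share of NK cells was 83.0% in WT with at least 2 UMIs of Ncr1 and Klre1, 58.8% in WT with 2 UMIs required of a member, and 56.9% in twi after thinning, when members per positive NK cell were 1.87 in WT and 1.79 in twi. The summed NK ratio was 0.920 with Ncr1 alone, 0.742 with at least 2 UMIs of the NK markers and 0.752 in cells with Y-linked transcripts and no Xist. With 2 UMIs required, the share of Cd8+ T cells was 9.09% in WT and 13.4% in twi and that of Cd8- T cells 19.0% in twi. After thinning these were 7.62%, 11.4% and 18.2%, and in Y-linked twi cells 12.5% (Cd8+) and 19.2% (Cd8-). With any Cd3 chain as T cell marker the Cd8- share was 19.4% in WT.

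Further results were recomputed after the data were seen. The activating share of Ly49 UMIs with any Cd3 chain was 48.6% in WT NK cells, 25.6% in WT Cd8+ T cells, and 9.28% in WT and 17.5% in twi Cd8- T cells. In Y-linked cells it was 44.4% in WT NK cells, 50.3% in twi NK cells and 16.1% in twi Cd8- T cells. The summed ratio with any Cd3 chain was 1.29 in Cd8+ and 1.12 in Cd8- T cells. In Y-linked cells it was 1.49 in Cd8- T cells and turned to 0.528 in Cd8+ T cells. The Klra1 ratio in Cd8+ T cells was 0.815 in Y-linked cells. The Klra7 ratio in Cd8- T cells was 0.967 with any Cd3 chain and 0.683 in Y-linked cells. By the intervals given above, none of these Klra1 and Klra7 ratios showed a difference from WT beyond counting error. The causes were not tested. Ratios with 0 UMIs in WT under an alternative could not be given. Depth limits members with few UMIs, Klra5 above all, and T cell members in WT.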

Other observations

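The Klra rows outside the 8 members had other patterns. Klra2 was seen mainly in cells outside the NK, T and B gates, in 46 of 328 WT cells (14.0%, 95% interval 10.4 to 18.3%) and 49 of 225 twi cells (21.8%, 16.6 to 27.7%), against 2 of 119 and 3 of 113 NK cells. Of the cells with Klra2 in that remainder, 91.3% in WT and 95.9% in twi also held Lyz2, a gene of myeloid cells. Among the remaining cells without Klra2 it was 73.8% and 51.7%. The neutrophil receptor gene Csf3r was held by 52.2% and 42.9%, against 35.8% and 17.6% of those without Klra2. The monocyte and macrophage genes Csf1r (37.0% and 59.2% against 18.4% and 17.0%) and Adgre1 (28.3% and 38.8% against 8.87% and 8.52%) were also more frequent. C1qa was less frequent, at 4.35% and 0% against 8.51% and 9.09%. Klra17 was seen in 21 of 328 WT and 8 of 225 twi cells of the same remainder, and in 0 of 119 WT NK cells, which allows up to 2.52% of cells with a UMI. Klra10, which shares 3′ sequence with Klra3 and Klra9, was seen in 5 WT and 2 twi NK cells.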
